A study of Mus musculus with 6 samples.

Results

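The hemicentin genes Hmcn1 and Hmcn2 were described across 6 arrays of adipose stromal cells, the fibroblast-like progenitors of fat. Their members are the 71 probe sets that the authors' comparison table names Hmcn1 (70) or Hmcn2 (1), of 23531 probe sets with a value and 3541 of these with a gene name here. That table holds only probe sets with an unadjusted p below 0.05 in the authors' paired test of perigonadal against subcutaneous cells. The difference between the depots therefore chose the members, and their values are given as a description without a test. The cells came from perigonadal fat (the visceral depot beside the gonads) or subcutaneous fat of male mice, with 3 pools per depot and 1 array per pool. Strain and age are not given in the labels. In all 6 pools the cells were used without culture after a magnetic sort for Sca1 and against CD45 and CD31. The labels state 6 animals and independent pools, but not whether 6 animals went into each pool. Whether pools with the same number share animals is not stated, so the spread here is that between pools.

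Hemicentins are very long secreted proteins of the extracellular matrix. A von Willebrand A domain at one end is followed by a long row of immunoglobulin domains, and the other end carries a nidogen-like G2F domain and EGF modules like those of fibulins. In Caenorhabditis elegans hemicentin joins neighbouring tissues through their basement membranes, and in zebrafish Hmcn1 is needed for the integrity of the fin fold. A transcript with this many exons can be read by many separate probe sets, and the array did so for Hmcn1.

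The stretch around the annotated start of each gene is shown because both genes were higher in the same depot. It is taken from RefSeq (build GRCm38.p6, 250 bases before to 50 after the start, 5′ to 3′ on the gene's strand). The Hmcn1 stretch lies at chr1:150993386-150993685 on the minus strand and the Hmcn2 stretch at chr2:31314082-31314381 on the plus strand. Capitals mark matches, on either strand, to the CCAAT box (CCAAT, or ATTGG in reverse) and the E-box (CANNTG), the motif of basic helix-loop-helix factors.
Hmcn1: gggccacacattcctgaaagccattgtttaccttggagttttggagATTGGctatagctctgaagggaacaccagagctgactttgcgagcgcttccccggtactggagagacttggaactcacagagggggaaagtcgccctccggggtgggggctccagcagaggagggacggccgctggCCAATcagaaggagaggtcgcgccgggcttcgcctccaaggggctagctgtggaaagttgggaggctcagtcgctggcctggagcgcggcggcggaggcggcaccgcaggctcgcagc
Hmcn2: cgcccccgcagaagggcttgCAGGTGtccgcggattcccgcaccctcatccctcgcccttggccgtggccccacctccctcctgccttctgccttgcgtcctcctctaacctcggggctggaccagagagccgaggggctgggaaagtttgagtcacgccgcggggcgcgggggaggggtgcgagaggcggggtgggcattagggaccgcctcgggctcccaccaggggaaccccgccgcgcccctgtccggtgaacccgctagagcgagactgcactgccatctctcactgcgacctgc
The Hmcn1 stretch held 2 CCAAT matches and no E-box, and the Hmcn2 stretch held 1 E-box and no CCAAT match. A CCAAT match was found in 37.4% and an E-box in 72.3% of the 32851 stretches of this length in the table. A GC box (GGGCGG or its reverse, in 35.7% of stretches) and a TATA box (TATAAA or its reverse, in 13.6%) matched neither gene. No marked matches overlap. Both stretches were rich in G and C, at 63.3% for Hmcn1 and 70.7% for Hmcn2 against a median of 52.7% over the table, with 19 and 26 CpG dinucleotides against a median of 7. The arrays do not measure which start was used.

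All arrays had similar scales, with median intensities between 6.44 and 6.96 and lower quartiles between 3.12 and 3.27. Of 9 stromal and sort markers, 3 had a name here, which only probe sets selected by the authors' test have. The gene of Sca1, Ly6a, was bright in every pool, at 435, 523 and 480 in perigonadal pools 1 to 3 and 510, 620 and 526 in subcutaneous pools 1 to 3, and its difference between the depots, taken on log2(intensity + 1), did not pass (-0.20, limma adjusted p = 0.231). The other 2 were lower in perigonadal cells. Thy1 averaged 378 in perigonadal and 736 in subcutaneous pools (log2 difference -0.96, limma adjusted p = 0.00048), and Pdgfrb, a platelet-derived growth factor receptor, averaged 75.1 in perigonadal and 105 in subcutaneous pools (-0.47, limma adjusted p = 0.027). The genes of CD45 and CD31 had no name here, and the 1 named leukocyte marker, Itgam, lay between 2.29 and 2.54 in all 6 arrays. Probe sets differ in how strongly they bind their target, so intensities of different probe sets are not relative amounts of RNA. The files used here carry no detection call.

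Hmcn1 lay on chromosome 1, band G1, according to the authors' table, where no genome build is named, and all 70 probe sets carry the same RefSeq transcript. Summed over the 70 probe sets, its normalized intensity was 1305, 1411 and 1078 in perigonadal pools 1 to 3, against 211, 209 and 212 in subcutaneous pools 1 to 3. The subcutaneous sums hardly differed from pool to pool, while the perigonadal sums spread over a wider range. In subcutaneous pools 43 of the 70 means lay below the lowest lower quartile of 3.12, where differences between pools can hardly show. The ratio of the mean sums was 6.00, to which bright probe sets contribute most, and the median of the 70 ratios of single probe sets was 3.96. Taken in each array, the median of the 70 intensities was 12.3, 14.6 and 11.35 in perigonadal pools 1 to 3. In subcutaneous pools 1 to 3 it was 2.80, 2.78 and 2.78. Because RNA came from whole pools of cells, fewer cells with Hmcn1 and less Hmcn1 RNA per cell cannot be told apart.

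The direction was the same throughout. In each of the 3 pool pairs, all 70 probe sets were higher in the perigonadal pool, and in all 70 the lowest perigonadal array lay above the highest subcutaneous array. Such separation was seen in 10.7% of all probe sets and in 34.6% of those named in the authors' table. In limma, fitted over all probe sets with the pool number as a block, 69 of the 70 were called higher at an adjusted p below 0.05, against 4.05% of all probe sets and 22.1% of the named ones (5.47% of all probe sets were called lower). Since the authors' test on the same arrays selected these probe sets, nothing is read from either count. Each difference below is that of log2(intensity + 1), perigonadal minus subcutaneous. The added 1 makes it smaller than the true log ratio where intensities are low. The median difference over the 70 was 1.73, with 1.81, 1.90 and 1.55 in pool pairs 1 to 3. The quartiles were 1.26 and 2.42 and the extremes 0.20 and 4.03. A difference of at least 1 was reached by 62 probe sets (reached by 1.22% of all probe sets on the array and 7.79% of the named ones), of at least 2 by 30 and of at least 3 by 9.

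**Figure D1:**
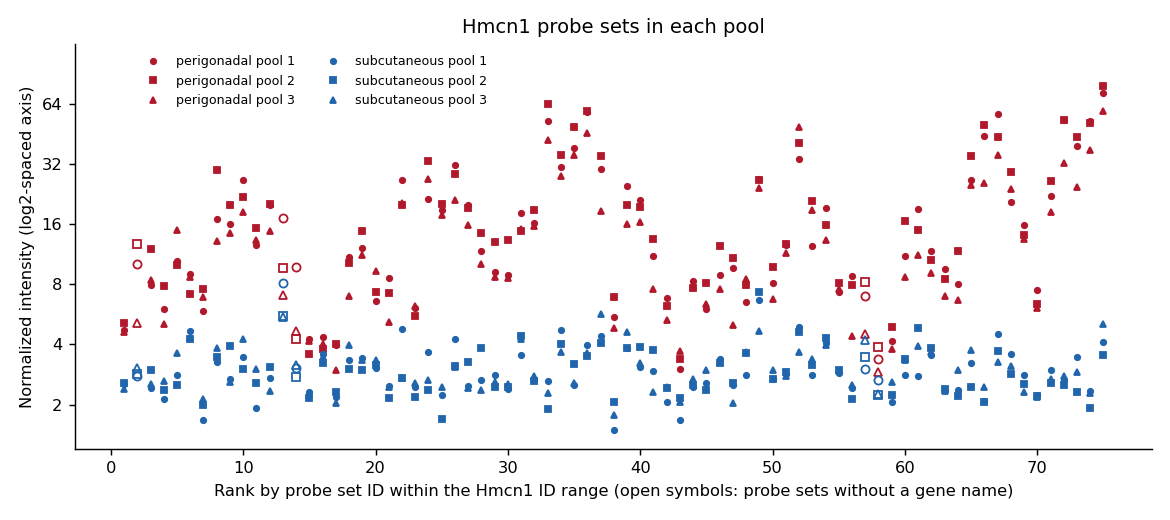
Normalized intensity (vertical axis, log2-spaced) of every probe set in the Hmcn1 range of IDs (horizontal axis, ranked 1 to 75 by ID) in perigonadal pools (red) and subcutaneous pools (blue). Filled symbols are the 70 probe sets named Hmcn1 and open symbols the 5 without a name. For Hmcn1 the perigonadal values vary between 2.97 and 78.9 along the range, while the subcutaneous values stay between 1.49 and 7.31.

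In subcutaneous pools Hmcn1 was dim at every probe set. All 70 had a subcutaneous mean below the lowest array median of 6.44, and 43 of them lay below the lowest lower quartile of 3.12. Subcutaneous means ran from 1.78 to 6.21, a range of 3.50-fold between probe sets. Perigonadal means ran from 3.36 to 70.1, a range of 20.9-fold, and 57 of the 70 were above the highest array median of 6.96. Along the 70 probe sets, the size of the depot difference had a Spearman's rho of 0.97 with the perigonadal level and of 0.27 with the subcutaneous level. These coefficients describe probe sets that share the same 6 arrays and the same transcript, and the difference itself contains the perigonadal level.

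Single probe sets show the range. The brightest, 10358670, which is also the last by ID, had an intensity of 72.5, 78.9 and 59.0 in perigonadal pools 1 to 3, against 4.11, 3.54 and 5.06 in subcutaneous pools 1 to 3. Its log2 difference was 3.76 ± 0.42 (SD of 3 pool pairs, as for the following probe sets) and the groups were far apart. The largest difference, 4.03 ± 0.40, belonged to 10358577, which had 52.6, 63.8 and 42.3 in perigonadal and 2.62, 1.89 and 2.28 in subcutaneous pools. As a ratio of mean intensities this was 23.4.

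Probe set 10358567, at the middle of the order of differences, had 11.7, 14.4 and 10.1 in perigonadal and 2.65, 3.83 and 2.37 in subcutaneous pools, a log2 difference of 1.73 ± 0.065. The first by ID, 10358513, had 4.70, 5.14 and 4.60 against 2.52, 2.57 and 2.38 (0.74 ± 0.044). Both depots were dim there, and the 3 values of each lay close together. The dimmest, 10358597, had 3.02, 3.37 and 3.70 in perigonadal and 1.68, 2.16 and 2.05 in subcutaneous pools (0.56 ± 0.081). Smallest of all was the difference of 10358543, at 4.37, 3.80 and 4.03 against 3.59, 3.21 and 3.44 (0.20 ± 0.025). It was the 1 member that limma did not call, although its arrays did not overlap.

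**Figure D2:**
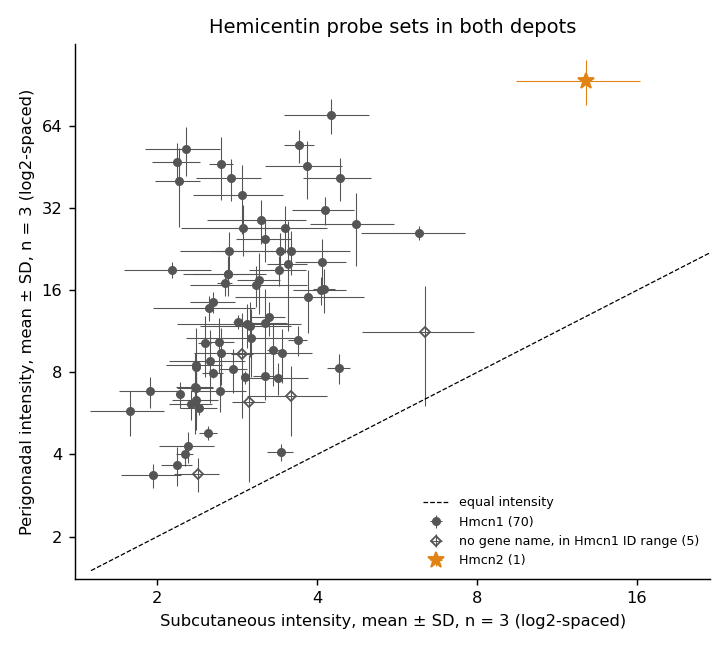
Mean intensity ± SD (n = 3 pools) of each probe set in perigonadal cells (vertical) and subcutaneous cells (horizontal), both axes log2-spaced, with the dashed line at equal intensity. All 70 Hmcn1 probe sets (grey circles), Hmcn2 (star) and the 5 unnamed probe sets (open diamonds) lie above the line. Hmcn1 spreads over 3.36 to 70.1 on the perigonadal axis and only 1.78 to 6.21 on the subcutaneous one.

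The depot difference was not spread evenly along the IDs. The files give no position for the probe sets, so the order is that of the IDs, and it is not given which end is 5′. Divided into 7 consecutive stretches of 10 probe sets, Hmcn1 had median log2 differences of 1.59, 1.13, 2.33, 2.12, 1.39, 1.46 and 3.23. The last stretch was the highest in every pool pair, with medians of 3.29, 3.50 and 2.83, and the second stretch had 1.25, 1.21 and 0.93. Their median intensities in perigonadal pools were 38.0 in the last and 7.38 in the second stretch, whereas those in subcutaneous pools were 2.69 and 2.95. The subcutaneous values lay near the low end of the arrays, where differences between probe sets can hardly show.

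Of the 9 probe sets with a difference of at least 3, 6 were among the last 10 by ID and the other 3 among those ranked 30 to 33 of the 70. Their subcutaneous means of 2.18 to 4.24 lay within the range of those of the 8 probe sets with a difference under 1, at 1.96 to 4.40. In perigonadal pools those 9 had means of 35.9 to 70.1, and the 8 had means of 3.36 to 8.29. Of these 8, 5 were among the first 14 by ID and none among the last 10. Neighbours by ID resembled each other in their difference (rho 0.57 over 69 neighbouring pairs) but not in their subcutaneous level (rho -0.18). A steady trend from first to last ID was weak (rho 0.29 over 70). The profile was shared between pool pairs, with rho 0.92 between pairs 1 and 2, 0.91 between pairs 1 and 3 and 0.91 between pairs 2 and 3. The same probes were read on each array, so this likeness includes the probes' own binding.

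**Figure D3:**
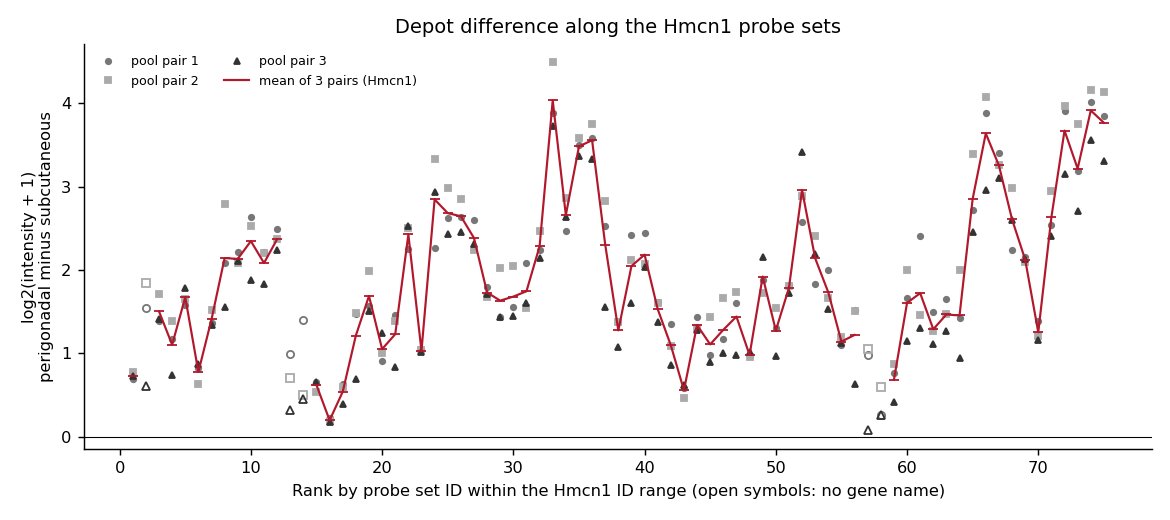
Difference of log2(intensity + 1), perigonadal minus subcutaneous (vertical axis), for each pool pair (grey symbols) along the 75 probe sets ranked by ID (horizontal axis), with the mean of the 3 pairs for Hmcn1 as a red line, broken at the 5 unnamed probe sets (open symbols). High stretches around the largest value of 4.03 and at the last IDs, and a low near 0.20, recur in all 3 pairs.

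The threshold of the authors' table left gaps in the row of Hmcn1 IDs. Between the first and the last lie 5 probe sets with values but without a name, and no probe set named for another gene. Whether they belong to Hmcn1 is not stated in the files used here. All 5 were higher in the perigonadal pool of each pair, with log2 differences of 0.37 to 1.33 and a median of 0.70. In 4 of them the depots did not overlap, and limma called 3 higher. Over all probe sets 10.7% were separated in this direction and 4.05% were called higher. Nothing is read from counts among 5 probe sets. The brightest of the 5 in perigonadal pools, 10358537, had 17.2, 9.62 and 7.08, against 8.12, 5.53 and 5.47 in subcutaneous pools, and here the depots overlapped. Probe set 10358515 had 10.1, 12.8 and 5.14 against 2.79, 2.83 and 3.04. Its difference of 1.33 ± 0.65 was larger than that of many named members, but pool pair 3 was far below the other pairs. Just inside the threshold, 10358623 had a p of 0.0496 and 10358547 a p of 0.0427 in the authors' deposited table. The SD of the 3 pair differences of log2(intensity + 1) ran from 0.0083 to 0.66 among the named members and from 0.19 to 0.65 among the 5 unnamed probe sets. The authors' differences are of log2 intensity without the added 1, so these are not the SDs of their test.

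In perigonadal pools 2 and 3, but less so in pool 1, most Hmcn1 probe sets of a pool deviated in the same direction. They read 1 transcript on the same arrays and are not replicates. Perigonadal pool 3 lay below the depot mean at 59 of 70 probe sets, pool 2 at 15 and pool 1 at 32. Median deviations over the 70 Hmcn1 probe sets, in log2(intensity + 1), were 0.03, 0.14 and -0.19 in perigonadal pools 1 to 3. Over all 23531 probe sets the median deviations of these 3 arrays were 0.0036, -0.016 and 0.013. Pool 3 lay below the depot mean at 45.7% of them, pool 2 at 56.0% and pool 1 at 48.7%. Among subcutaneous pools 1 to 3 the median Hmcn1 deviations were -0.012, -0.023 and 0.015, with 38, 42 and 30 of 70 below the depot mean. Of all probe sets, 48.5%, 50.1% and 52.7% lay below it. With 3 pools a depot these are descriptions, and subcutaneous Hmcn1 values near the low end of the arrays can hardly show differences between pools.

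**Figure D4:**
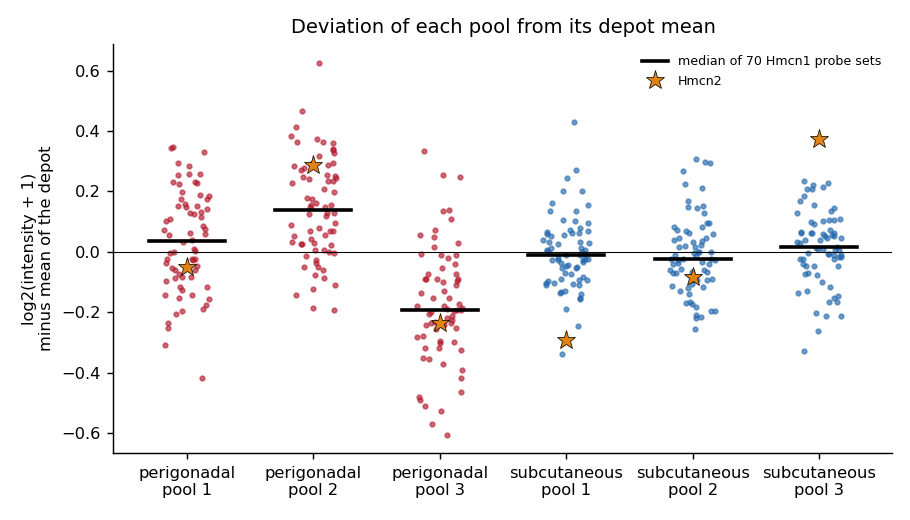
Deviation of log2(intensity + 1) from the mean of its depot (vertical axis) for the 70 Hmcn1 probe sets (dots), their median (bar) and Hmcn2 (star) in each of the 6 pools (horizontal axis, perigonadal red, subcutaneous blue). The Hmcn1 median of perigonadal pool 3 is -0.19 and that of pool 2 is 0.14, while the subcutaneous medians run from -0.023 to 0.015.

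Hmcn2, the second vertebrate hemicentin, had 1 probe set with a name, 10471139 (chromosome 2, band B). Any other Hmcn2 probe set that the authors' test did not select would have no name here. Its intensity was 89.6, 113.5 and 78.7 in perigonadal pools 1 to 3, against 10.1, 11.8 and 16.6 in subcutaneous pools 1 to 3. The depots did not overlap, and this probe set was above the array median in each of the 6 arrays. The log2 difference was 2.79 ± 0.53, with 3.03, 3.16 and 2.18 in pool pairs 1 to 3, and the ratio of mean intensities was 7.33. Of the 70 Hmcn1 probe sets, 12 had a larger difference. Pool pair 3 showed the smallest difference of both genes: perigonadal pool 3 was the lowest of its depot for Hmcn2 as well (-0.24 from the depot mean), and subcutaneous pool 3 the highest (0.37 above it).

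The genes most like each hemicentin were taken by the Euclidean distance between centred log2(intensity + 1) profiles over the 6 arrays, among 3179 other named genes, each by its brightest probe set. All of these had been selected by the authors' test as well. Nearest to the median Hmcn1 profile were Cp (distance 0.26), which encodes the copper-carrying ferroxidase ceruloplasmin, the transcriptional coactivator Eya2 (0.33), the collagen VI chain Col6a6 (0.35), the glycosyltransferase B3gnt2 (0.37) and the retinol dehydrogenase Rdh10 (0.38). Cp had 293, 308 and 267 in perigonadal pools 1 to 3 and 71.9, 78.8 and 86.3 in subcutaneous pools 1 to 3. Nearest to Hmcn2 were the matrix glycoprotein Thbs1 (0.35), Ltbp4 (0.54), which binds latent TGF-beta and helps elastic fibres form, the von Willebrand A matrix protein Vwa1 (0.70), the guidance ligand Slit2 (0.72) and the iron carrier gene Trf (0.80). Thbs1 had 331, 381 and 329 in perigonadal and 48.8, 52.2 and 72.2 in subcutaneous pools. A short distance to the profile follows from this choice of genes, but the same order of pools does not. Cp, Eya2 and Thbs1 shared the order of perigonadal pools of both hemicentin profiles (pool 2 highest, pool 3 lowest). The other genes named here did not. The median Hmcn1 profile and the Hmcn2 profile were 1.37 apart.

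Other matrix genes did not share 1 direction. Of 86 genes listed as relatives, partners or neighbours of hemicentins in the matrix, 32 had a name here, each because the authors' test had selected it. In limma 14 of the 32 rose in perigonadal cells, 9 fell and 9 missed the threshold, with a median log2 difference of 0.22. Over all 3181 named genes, 20.9% were higher and 31.4% lower, and the median was -0.17. Of 5 named fibulins and nidogens, which share modules with the hemicentins, 2 rose, 1 fell and 2 missed the threshold. Fbln2 had 304, 296 and 314 in perigonadal pools 1 to 3 and 159, 149 and 177 in subcutaneous pools 1 to 3, a log2 difference of 0.91 ± 0.088 (SE, limma adjusted p = 0.00074). Fbln5, which helps assemble elastic fibres, was higher by 0.83. Fbln7 went the other way, at 15.2, 14.1 and 13.8 in perigonadal and 34.8, 31.1 and 40.0 in subcutaneous pools (-1.24 ± 0.10, limma adjusted p = 0.00041). The basement membrane nidogen Nid2 had a difference of 0.22 (limma adjusted p = 0.186) and the fibulin Efemp2 one of -0.25 (limma adjusted p = 0.143). With 16 added to the intensity in place of 1, both passed (limma adjusted p = 0.038 each).

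Of 9 named basement membrane genes, 4 were higher, 3 lower and 2 did not pass. The collagen IV chains Col4a6 and Col4a5 were higher by log2 1.23 and 0.84. The netrin Ntn4, which binds laminin, and the laminin chain Lamb1 were higher by 0.54 and 0.49. Lower were Pxdn (-0.74), the peroxidase that cross-links collagen IV, the proteoglycan Agrn (-0.45) and the laminin chain Lamb3. Without pool pair 1 the calls of Lamb1, Ntn4, Agrn and Lamb3 did not pass, and without pool pair 2 those of Lamb1, Agrn and Lamb3 did not. Lamb3 also did not pass with 16 added in place of 1. Of 7 named microfibril and elastic fibre genes, 3 were higher and 3 lower: Ltbp4 (2.56), the microfibril protein Mfap4 (1.34) and Ltbp2 (0.65) against Mfap2 (-0.92), the cross-linking enzyme Loxl2 (-0.57) and Emilin2 (-0.51). Emilin2 did not pass without pool pair 1 or without pool pair 2, and Loxl2 did not pass without pool pair 1.

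Of 7 named receptors and linkers, 2 were higher and 2 lower. The fibronectin receptor chain Itga5 had 123, 151 and 119 in perigonadal pools 1 to 3 and 48.1, 65.4 and 59.3 in subcutaneous pools 1 to 3 (log2 difference 1.17), and Itgb8, whose integrin binds latent TGF-beta, was higher by 0.93. The collagen-binding chains Itga2 and Itga11 were lower, with -0.77 and -0.75. The plakin Plec and the laminin receptor Dag1 had differences of 0.25 and -0.25 and did not pass, though Dag1 did with 16 added in place of 1. Of 4 named matrix proteins with a von Willebrand A domain, which hemicentins also carry, 3 were higher, Matn2 (4.20), Vwa1 (2.82) and Vit (1.21), and Coch did not pass.

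**Figure D5:**
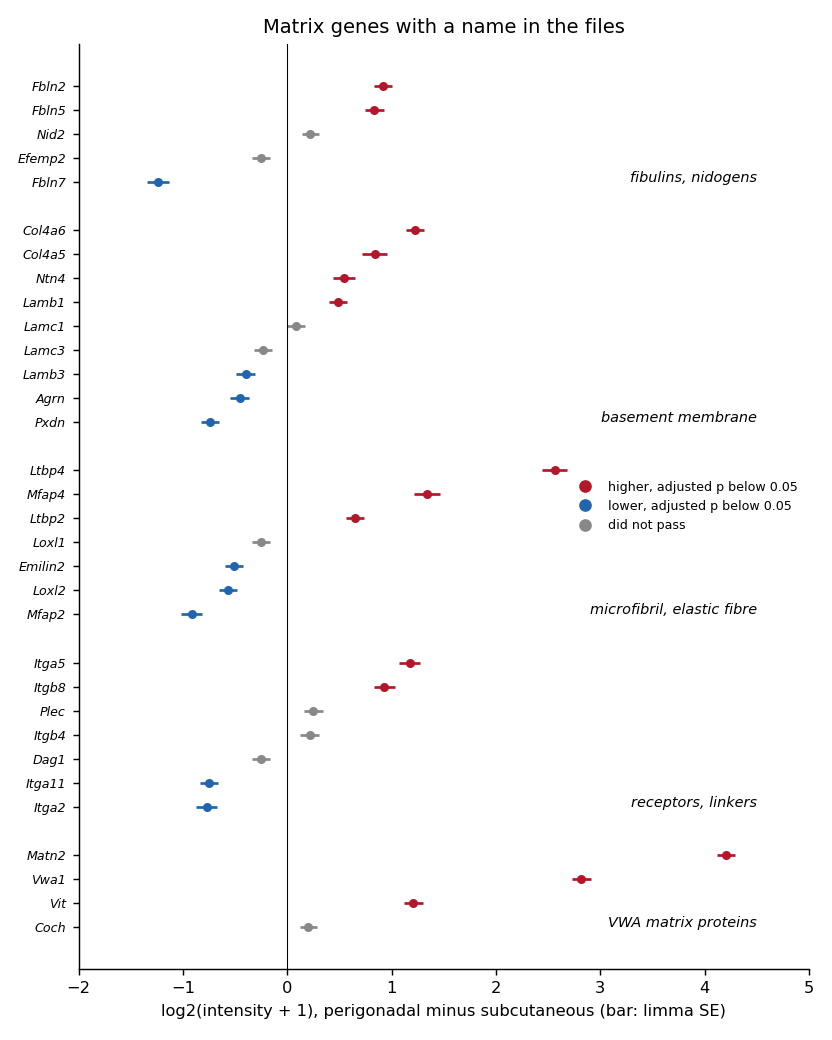
Difference of log2(intensity + 1), perigonadal minus subcutaneous (horizontal axis; bars show the limma SE), for the 32 named matrix genes in 5 lists (rows). Red marks the 14 genes called higher, blue the 9 called lower and grey the 9 that did not pass, and each list except the von Willebrand A proteins holds genes on both sides of 0.

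Named markers of other cells differed between the same pools. A name here means that the authors' test on these arrays had selected the gene, so unnamed markers were not seen. Over all 3181 named genes, 20.9% were higher and 31.4% lower in limma. Of 18 mesothelial markers (the cell layer over visceral fat), 11 had a name: 10 were higher and 1 lower in perigonadal cells in limma, with a median log2 difference of 1.58. Their summed intensity was 372 to 409 in perigonadal and 68.7 to 84.5 in subcutaneous pools. In perigonadal pools Wt1 and Rspo1, with means of 141 and 96.3, made up most of the sum. Wt1 had 144, 153 and 126 in perigonadal pools 1 to 3 and 4.28, 4.61 and 3.64 in subcutaneous pools 1 to 3. The order of the perigonadal pools seen for the Hmcn1 sum and Hmcn2 (pool 2 highest, pool 3 lowest) was shared by 3 of the 11 named markers (Wt1, Upk3b and Krt19), and the mesothelial sum was lowest in pool 1. The defining mesothelial gene Msln had no name here. None of the named markers was at 0, which without a detection call does not show that a marker was present. Of 10 pericyte and smooth muscle markers 6 had a name, 4 higher and 2 lower, with sums of 111 to 146 in perigonadal and 62.3 to 88.0 in subcutaneous pools. All 3 named Schwann cell markers of 8 were lower, with sums of 18.4 to 20.7 against 50.8 to 61.4. Of 10 endothelial markers only Tek had a name, at 73.7 to 79.5 against 121 to 139. The part of these cells in the hemicentin differences was not tested.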

How the data were processed

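RNA of 6 pools was read on 6 Affymetrix arrays. Per the labels, total RNA was labelled with biotin, and Partek was the software, per the submitters' processing notes. How background was corrected and arrays were normalized is not given in the sources used here. What the authors deposited is a normalized intensity, 1 linear value for each probe set of an array. The scale was read from the values, since the log2 means in the authors' table differ from means of log2 intensity by at most 0.0032. Per the file headers, that table also gives their differences, the ratio, a signed fold score, the t score and the p-value of a paired test, for 3694 probe sets, of which 3541 have a value. Symbols were updated through RefSeq accessions (3417 rows), symbols (166) or synonyms (53) of GRCm38.p6, and 58 kept the file's.

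Intensities were tested as log2(intensity + 1) with limma 3.58.1 in R 4.3.3 (lmFit, eBayes, pool number as a fixed block as in the authors' paired test, 2 residual and 5.24 prior degrees of freedom) over all 23531 probe sets without a filter, with Benjamini-Hochberg adjustment and a threshold of 0.05. Code was tested on simulated data. Alternatives were no replicate block, pseudocounts of 0 and 16, the probe sets brighter than the median, quantile normalization, each pool pair left out, the methods' t-test and other summaries of Hmcn1. The number of arrays limits the precision. Members and gene lists were chosen with earlier results of these data known. Named Hmcn1 probe sets are the brightest, dimmest, first and last, those with the largest, middle and smallest difference, and exceptions to a count. Of each matrix list, up to 6 called members with the largest differences are named. Genes and probe sets outside these rules (named non-passing list members, markers, unnamed probe sets and those next to the threshold) were picked after their values were seen.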

Additional observations from a re-analysis of the deposited data

How the results depend on the processing

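In all 71 Hmcn1 and Hmcn2 probe sets every perigonadal array lay above every subcutaneous array. No pseudocount, block or left-out pool pair could therefore change the direction, and nothing is read from its staying positive. The size of the difference depends on the pseudocount and on which probe sets are summarised. With a pseudocount of 0 the median Hmcn1 difference was 1.98 and with 16 it was 0.58. The mean over probe sets was 1.92, the brightest probe set gave 3.76, the brighter part of its probe sets 2.43 and the fit on the probe sets brighter than the median 2.35. That last fit held 41 Hmcn1 probe sets and called 41 higher. They passed the filter on the mean of 6 arrays through their perigonadal values, so the filter fixed both that count and the 2.35. The choice by brightness likewise set the 3.76 and the 2.43. With a pseudocount of 16, Hmcn2 had a difference of 1.93, the 5 unnamed probe sets a median of 0.22, and 10 of the 69 Hmcn1 calls did not pass. Among matrix genes 15 were then higher and 11 lower: Nid2, Efemp2, Loxl1 and Dag1 passed and Lamb3 did not. Leaving out 1 pool pair in turn gave 529 to 1068 probe sets higher and 660 to 1408 lower, against 952 and 1286 with all pairs, and 5 to 9 matrix genes lower. The lowest of these counts came without pool pair 1, and 716 were lower without pool pair 2. The cause was not tested. Between 65 and 69 Hmcn1 probe sets were called in these fits, and the median Hmcn1 difference lay between 1.73 and 1.81. The methods' t-test passed 1524 probe sets higher and 2017 lower at an unadjusted p below 0.05. After Benjamini-Hochberg adjustment it passed 0 higher and 0 lower, with 0 Hmcn1 probe sets and 0 matrix genes in either direction. With no replicate block, 943 probe sets were higher and 1316 lower, 69 Hmcn1 probe sets were called and no count moved by over 1.5 times. The pool numbers paired weakly: over all probe sets, the departures of the perigonadal and the subcutaneous pool of a number from the mean of each depot had correlations of 0.17, 0.16 and 0.053. Subcutaneous Hmcn1 values near the low end of the arrays limit how far ratios can be read.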
